A study of Mus musculus with 6 samples.

Results

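The genes described are the cytosolic phospholipases Pla2g4a and Pla2g4c and the cyclooxygenase Ptgs2, with the other prostaglandin enzymes named beside them. Pla2g4a, Pla2g4c and Ptgs2 were chosen by their mean log2 intensity, which stood apart between K14ΔNLef1 and wild type arrays, so their differences are given as a description with no test. Ptgs1, Ptges, Ptges2, Ptges3, Hpgd, Ptgds and Pla2g4b came in by name, and only probe sets annotated to a single gene were used. By this rule 8 of the 10 genes were measured, of 11280 genes in all, and they were read by 80 of 109751 probe sets. The other 2 were not analysed as genes: Ptges3 had no probe set listed, and those of Pla2g4b were annotated to Jmjd7 as well.

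Prostaglandins are short-lived lipid signals made on demand. A phospholipase A2 frees arachidonic acid from membranes, a cyclooxygenase converts it to prostaglandin H2, and terminal synthases turn that into individual prostaglandins, which act on cell surface receptors and are cleared by uptake and oxidation. In skin, the inducible cyclooxygenase Ptgs2 is low in resting epidermis and is known for its induction by wounding, ultraviolet light and tumour promoters.

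Samples of female K14ΔNLef1 transgenic mice aged 9.5 weeks (3 arrays) were compared with samples of female wild type mice of that age (3 arrays), all on a C57BL6/CBA background. The transgene encodes Lef1, a DNA-binding partner of β-catenin in the Wnt pathway, without its N-terminal part and under the keratin 14 promoter, which is active in basal keratinocytes and the outer root sheath of the hair follicle. Total RNA came from back skin epidermal cells that the labels call unfractionated keratinocytes, although the extraction text mentions cell sorting, and each sample was amplified and hybridised to 1 exon array. By their labels the arrays are biological replicates.

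The transgene was visible on every array labelled K14ΔNLef1. The gene value of Lef1, log2 intensity averaged over its 13 probe sets, was 11.11, 11.13 and 11.24 on K14ΔNLef1 arrays, against 5.81, 7.02 and 6.26 on wild type arrays. Of the 13 probe sets, 10 were higher without overlap and 3 overlapped between the genotypes, with log2 differences from -0.36 to 7.54 over all 13. Keratinocyte markers were bright, with Krt14 at 12.81 to 13.06 on K14ΔNLef1 arrays and 12.89 to 12.99 on wild type arrays. The mean of 13 keratinocyte markers was 10.42 to 10.97 on K14ΔNLef1 arrays and 11.03 to 11.05 on wild type arrays, with no overlap. Of the 13, 2 were higher in K14ΔNLef1, Krt14 among them. The array of K14ΔNLef1 replicate 1 stood apart, with a median intensity of 154.2, against 190.0 and 203.2 on the other K14ΔNLef1 arrays and 190.2 to 199.8 on wild type arrays. T cell markers averaged 7.63, 9.47 and 8.87 on K14ΔNLef1 replicates 1, 2 and 3, against 8.41, 7.51 and 7.88 on wild type replicates 1, 2 and 3, with 9 of 10 higher in K14ΔNLef1. Markers of Langerhans cells and antigen presentation averaged 7.06, 8.34 and 7.74 on K14ΔNLef1 arrays, against 7.44, 6.61 and 7.01 on wild type arrays. Of these, 8 of 9 were higher. Markers of macrophages, monocytes and neutrophils averaged 6.23, 6.16 and 6.61 on K14ΔNLef1 arrays, against 5.94, 6.01 and 5.92 on wild type arrays, with no overlap and 8 of 11 higher. Of 81 markers of 9 cell types, 0 passed the limma test over all genes. An unadjusted p under 0.05 was seen for 15 of the 81, a larger share than the 11.8% of all genes. No detection call came with the intensities, so whether a marker was absent cannot be said, and in bulk RNA fewer cells of a type and less RNA per cell cannot be told apart. The part of these markers in the results that follow was not tested.

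Pla2g4c was higher and Pla2g4a and Ptgs2 were lower on all K14ΔNLef1 arrays. Pla2g4c encodes cytosolic phospholipase A2 gamma, which in humans acts without calcium. Its gene values, over 12 probe sets, were 8.28, 8.22 and 8.33 on K14ΔNLef1 replicates 1, 2 and 3, against 5.11, 5.40 and 4.83 on wild type replicates 1, 2 and 3. The K14ΔNLef1 arrays lay close together and far above all wild type arrays. The mean was 8.27 ± 0.06 in K14ΔNLef1 and 5.11 ± 0.29 in wild type (SD, n = 3 each), a difference of 3.16 on the log2 scale or 8.94-fold. By size this was number 6 from the top among all genes. A pseudogene, Pla2g4c-ps, is listed on the same chromosome, and whether it adds to the signal was not tested.

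Pla2g4a encodes cytosolic phospholipase A2 alpha, the calcium-regulated enzyme that supplies most arachidonic acid for prostaglandin synthesis. Over 18 probe sets it had gene values of 7.12, 7.58 and 7.89 on K14ΔNLef1 replicates 1, 2 and 3, against 9.09, 9.03 and 8.92 on wild type replicates 1, 2 and 3. The groups did not overlap, and the K14ΔNLef1 arrays were the more spread. The mean was 7.53 ± 0.39 in K14ΔNLef1 and 9.01 ± 0.09 in wild type (SD, n = 3 each), lower by 2.80-fold with a log2 difference of -1.48. The lowest K14ΔNLef1 value was on the dim array of replicate 1, and the log2 difference without that array was -1.28.

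Ptgs2 catalyses the committed step from arachidonic acid to prostaglandin H2. Over 13 probe sets its gene values were 5.05, 5.09 and 5.20 on K14ΔNLef1 replicates 1, 2 and 3, against 7.64, 7.10 and 6.49 on wild type replicates 1, 2 and 3. Here the gene values were more spread on wild type than on K14ΔNLef1 arrays, yet the lowest wild type array was still above every K14ΔNLef1 array. The mean was 5.11 ± 0.08 in K14ΔNLef1 and 7.08 ± 0.58 in wild type (SD, n = 3 each), lower by 3.91-fold with a log2 difference of -1.97. Probe sets 5549329 and 5573389, which differed most, were instead more spread in K14ΔNLef1 (SD of 1.30 and 0.79) than in wild type (0.50 and 0.25). Without the array of K14ΔNLef1 replicate 1 the log2 difference of Ptgs2 was -1.94 and that of Pla2g4c was 3.16. For all 11280 genes, groups without overlap were seen with higher values in 6.91% and with lower values in 11.8%, and nothing is read from the 3 picked genes against these shares.

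**Figure D1:**
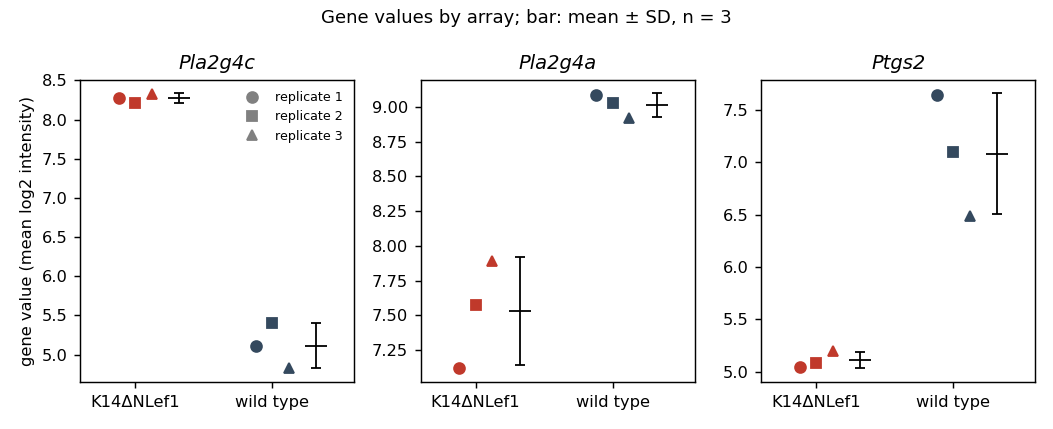
Gene values (mean log2 intensity of a gene's probe sets, a separate scale in each panel) of Pla2g4c, Pla2g4a and Ptgs2 on K14ΔNLef1 arrays (red) and wild type arrays (dark), with a mark shape for each replicate number and bars for mean ± SD (n = 3). Pla2g4c sits at 8.22 to 8.33 in K14ΔNLef1 and 4.83 to 5.40 in wild type, while Pla2g4a and Ptgs2 sit lower in K14ΔNLef1 than in wild type with no overlap.

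The direction was shared along each of these transcripts, but the size was not. All 12 probe sets of Pla2g4c were higher in K14ΔNLef1, with log2 differences of 1.10 to 5.23, and in all 12 the groups did not overlap, where 5.11% of all probe sets were higher without overlap. The widest, probe set 5357507, had 9.28, 9.70 and 9.66 on K14ΔNLef1 arrays against 5.40, 3.92 and 3.65 on wild type arrays. The narrowest, probe set 4937934, averaged 6.29 ± 0.57 on K14ΔNLef1 arrays and 5.19 ± 0.36 on wild type arrays (SD, n = 3 each). No probe set of Pla2g4c had a wild type mean above 6.90, whereas those of K14ΔNLef1 reached 9.55.

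All 18 probe sets of Pla2g4a were lower, by log2 differences of -2.98 to -0.47, and 15 of them were lower without overlap, where 9.46% of all probe sets were. Probe set 4887571 had the largest difference, with 2.73, 4.65 and 3.41 on K14ΔNLef1 arrays against 7.08, 6.50 and 6.16 on wild type arrays. All 13 probe sets of Ptgs2 were lower as well, by -4.40 to -0.78, and 9 were lower without overlap. In Ptgs2 a pair of probe sets differed most, and both were bright in wild type. Probe set 5549329 had 4.47, 4.42 and 6.69 on K14ΔNLef1 arrays against 10.08, 9.07 and 9.64 on wild type arrays. The other, probe set 5573389, had 5.97, 5.96 and 7.33 on K14ΔNLef1 arrays against 10.11, 10.43 and 9.95 on wild type arrays. The median probe set of Ptgs2 differed by -1.59, against -1.48 for Pla2g4a and 3.23 for Pla2g4c. Probe sets of a gene share its RNA and are not replicates, and their positions along the transcripts were not used here.

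**Figure D2:**
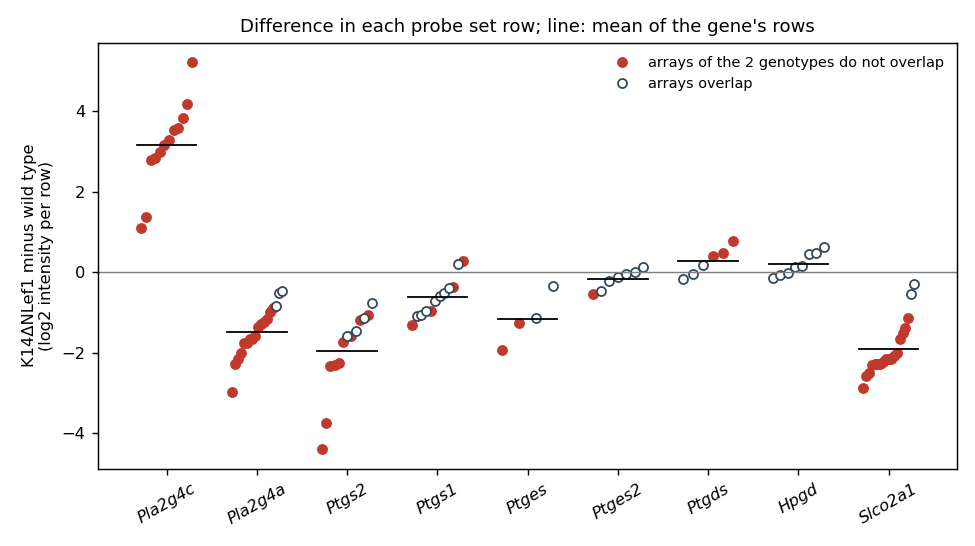
Difference per probe set row (K14ΔNLef1 minus wild type, log2 intensity) for 9 genes, each point 1 probe set, red where the arrays of the genotypes did not overlap and open where they did, with a line at the mean of the gene. All points of Pla2g4c lie above 0 and all points of Pla2g4a, Ptgs2 and Slco2a1 lie below it, while those of Ptgs1, Ptges2, Ptgds and Hpgd lie on either side.

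The promoter windows of the genes that stood apart are shown because the transgene encodes a DNA-binding protein and because Pla2g4a, Ptgs2 and the transporter Slco2a1, described with the clearance genes, were lower on the same arrays. They are RefSeq sequences of build GRCm38.p6, 5′ to 3′ on the gene's strand, from 250 bases before to 50 after an annotated start, with motif matches in capitals. For Pla2g4c and Pla2g4a, which each have 2 such windows, the first listed is printed, at chr7:13325417-13325716 on the plus strand and chr1:149961241-149961540 on the minus strand. Those of Ptgs2 and Slco2a1 lie at chr1:150099781-150100080 and chr9:103008237-103008536, both on the plus strand.
Pla2g4c: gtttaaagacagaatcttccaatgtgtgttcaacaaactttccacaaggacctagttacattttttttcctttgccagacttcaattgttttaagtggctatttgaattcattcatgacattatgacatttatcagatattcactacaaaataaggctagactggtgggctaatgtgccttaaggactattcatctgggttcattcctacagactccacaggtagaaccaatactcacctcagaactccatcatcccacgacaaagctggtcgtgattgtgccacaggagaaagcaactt
Pla2g4a: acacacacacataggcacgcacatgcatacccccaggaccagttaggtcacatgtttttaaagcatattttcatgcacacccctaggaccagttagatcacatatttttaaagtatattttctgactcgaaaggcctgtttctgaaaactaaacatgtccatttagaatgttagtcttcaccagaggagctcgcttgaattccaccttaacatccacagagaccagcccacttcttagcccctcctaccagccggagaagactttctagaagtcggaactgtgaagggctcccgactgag
Ptgs2: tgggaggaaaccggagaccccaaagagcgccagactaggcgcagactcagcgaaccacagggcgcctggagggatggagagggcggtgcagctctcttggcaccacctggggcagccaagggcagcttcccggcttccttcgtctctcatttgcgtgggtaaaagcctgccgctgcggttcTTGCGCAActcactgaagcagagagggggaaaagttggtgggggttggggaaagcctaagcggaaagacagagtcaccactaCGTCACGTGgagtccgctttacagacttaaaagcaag
Slco2a1: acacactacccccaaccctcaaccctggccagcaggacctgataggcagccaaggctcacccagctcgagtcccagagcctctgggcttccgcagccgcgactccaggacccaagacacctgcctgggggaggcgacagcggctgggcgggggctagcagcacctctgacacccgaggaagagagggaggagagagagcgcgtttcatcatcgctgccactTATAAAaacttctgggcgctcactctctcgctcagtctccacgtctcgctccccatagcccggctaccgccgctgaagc
Tcf/Lef motifs were searched as CTTTGAA or CTTTGAT or CTTTGTA or CTTTGTT on both strands. None of these letters occurred in any of the 6 windows of these 4 genes, where 16.9% of all 32851 windows of this length held at least 1 match. The Ptgs2 window held the C/EBP palindrome TTGCGCAA at bases 182 to 189, found in 0.183% of windows. It also held a cAMP response element core (TGACG, printed as its complement) at bases 264 to 268, overlapping an E-box (CACGTG) at bases 267 to 272. Those were found in 20.8% and 7.15% of windows, and a TATA box (TATAAA), which the Slco2a1 window held at bases 222 to 227, in 13.6%. The second window of Pla2g4a, not printed, held a TATA box on the other strand at bases 51 to 56. A match is a description of the letters and not a binding site, and more distant sequence was not analysed here.

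Pla2g4a and Ptgs2 are neighbours on chromosome 1, with 2 genes of the reference table between them, and each is the other's nearest measured gene on that side. None of the 2 nearest measured genes on either side of the pair passed the test. Pdc, past Ptgs2, had 6.21, 5.50 and 5.32 on K14ΔNLef1 arrays against 5.78, 5.54 and 5.75 on wild type arrays, and Prg4 differed by 0.01. Without K14ΔNLef1 replicate 1 these differed by -0.28 and -0.05. On the side of Pla2g4a, Rgs18 had 5.63, 7.65 and 6.33 on K14ΔNLef1 arrays against 5.58, 4.99 and 5.38 on wild type arrays, and Rgs1 differed by 0.82, or by 0.24 without K14ΔNLef1 replicate 2 and 1.51 without replicate 1. Rgs18 differed by 1.22, or by 0.67 without K14ΔNLef1 replicate 2. Within each genotype, Rgs18 and Rgs1 ranked the arrays in the order of the T cell marker averages. Markers of Langerhans cells and antigen presentation gave the same order, and the part of either marker list was not tested. Around Pla2g4c on chromosome 7, Chmp2a, Trim28, Cabp5 and Crx differed by -0.55, -0.02, 0.10 and -0.20, and without K14ΔNLef1 replicate 1 by -0.20, 0.06, -0.05 and -0.22. Of these 8 nearest measured genes 0 passed (limma adjusted p of 0.344 to 0.991), and 1, Rgs18, had an unadjusted p under 0.05. Most are not adjacent. Between Pla2g4c and Chmp2a, Trim28, Cabp5 and Crx lay 15, 16, 2 and 88 genes of the reference table. Between Pla2g4a and Rgs18 and Rgs1 lay 21 and 24, and between Ptgs2 and Pdc and Prg4 lay 4 and 8.

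The genes whose values followed these 3 most closely over the 6 arrays were different for each. Since the arrays form 2 genotypes, any gene whose genotypes stand well apart has a Pearson r near 1 or -1, so these are descriptions. For Pla2g4c they were Zfp771 (r of 0.996), Trpv2 (0.995) and Lef1 itself (0.993). Their log2 differences were 0.47, 0.50 and 4.80. For Pla2g4a they were Mfsd1, Bfar and the cell cycle inhibitor Cdkn1a, each with r of 0.998 and with log2 differences of -0.83, -0.13 and -1.26. For Ptgs2 they were Junb, an AP-1 transcription factor subunit, with r of 0.984, Prodh with 0.977 and Nsun3 with 0.976. Junb had 7.84, 7.85 and 8.03 on K14ΔNLef1 arrays against 8.57, 8.44 and 8.26 on wild type arrays, the same order of arrays as Ptgs2.

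The rest of the pathway was read from lists of 116 further genes, of which 90 were measured, and tested with limma over all genes. Of the 90, 2 fell, 0 rose and 88 did not pass, and the genes that fell were the prostaglandin transporter gene Slco2a1 and the acyl-CoA synthetase gene Acsl1. Over all genes 0.328% rose and 0.833% fell at an adjusted p of 0.05 or less, 1.16% together, against 2.22% of the 90. Over all genes these shares are 37 genes up and 94 down, and the split was 103 and 133 once every array was shifted to a common median and 89 and 112 after quantile normalization. Without K14ΔNLef1 replicate 1 the shares were 1.02% up and 1.1% down over all genes, and 0 up and 3 down among the 90. Means were lower in K14ΔNLef1 for 53 of the 90, where 57.2% of all genes had lower means. The count was 48 of the 90 both with the shifted and with the quantile normalized arrays. The median log2 difference was -0.16 over the 90 genes and -0.05 over all genes. The median over all genes was 0.05 with the shifted arrays and 0.06 after quantile normalization. At an unadjusted p under 0.05, 5 of the 90 were higher and 19 lower, 24 in all, where 11.8% of all genes reached that p, 4.21% higher and 7.58% lower. Without K14ΔNLef1 replicate 1 the median of the 90 was -0.05 and that of all genes -0.02, and 51 of the 90 had lower means, where 52.8% of all genes did.

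Among the other phospholipases, none moved with Pla2g4a or Pla2g4c past the test. Of 12 genes of secreted and other phospholipases A2, the receptor gene Pla2r1 included, 0 passed (limma) and 0 had an unadjusted p under 0.05, with log2 differences of -0.28 to 0.30. The nearest were Pla2r1, which binds secreted phospholipases, at 5.99 ± 0.11 in K14ΔNLef1 and 5.68 ± 0.02 in wild type, and Pla2g15, the lysosomal enzyme, at 6.90 ± 0.12 in K14ΔNLef1 and 7.18 ± 0.04 in wild type (SD, n = 3 each). The cytosolic family members Pla2g4b, Pla2g4d, Pla2g4e and Pla2g4f were not measured as single genes.

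Of 8 other prostaglandin synthesis enzymes 0 passed (limma), and 3 had an unadjusted p under 0.05, all lower (11.8% of all genes were under it in either direction). Ptges, the inducible microsomal synthase of prostaglandin E2 that often works with Ptgs2, had 7.02, 6.60 and 7.40 on K14ΔNLef1 replicates 1, 2 and 3, against 7.97, 8.40 and 8.16 on wild type replicates 1, 2 and 3. All K14ΔNLef1 arrays were below all wild type arrays, but the log2 difference of -1.17 (SE 0.24) missed the threshold (adjusted p of 0.0725, and between 0.0603 and 0.286 when any single array was dropped). All 4 of its probe sets were lower. Ptgs1, the constitutive cyclooxygenase, had 7.10, 8.08 and 7.78 on K14ΔNLef1 arrays against 8.35, 8.32 and 8.16 on wild type arrays. Its groups did not overlap either, yet the difference of -0.62 (SE 0.26, adjusted p of 0.398) did not pass, and was -0.35 without the dim array of K14ΔNLef1 replicate 1. Over the 12 probe sets of Ptgs1, 10 were lower and 2 higher.

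Hpgds, the hematopoietic synthase of prostaglandin D2, had 6.85, 9.10 and 7.84 on K14ΔNLef1 replicates 1, 2 and 3, against 9.77, 8.94 and 9.13 on wild type replicates 1, 2 and 3. The K14ΔNLef1 arrays ranged over more than the difference between the means, K14ΔNLef1 replicate 2 lay within the wild type values, and the gene did not pass (log2 difference of -1.35, SE 0.51, adjusted p of 0.352). It was -0.81 without K14ΔNLef1 replicate 1 and -1.94 without K14ΔNLef1 replicate 2. Within each genotype, Hpgds ranked the arrays in the order of the T cell marker averages. The markers of Langerhans cells and antigen presentation gave that order too, and the part of either marker list in Hpgds was not tested. The other synthases showed smaller differences. Ptgds, the lipocalin-type synthase of prostaglandin D2, averaged 6.39 ± 0.35 in K14ΔNLef1 and 6.12 ± 0.07 in wild type (SD, n = 3 each), and its log2 difference of 0.27 was 0.08 without K14ΔNLef1 replicate 1. Ptges2, a membrane-associated synthase, averaged 6.54 ± 0.14 in K14ΔNLef1 and 6.72 ± 0.18 in wild type (SD, n = 3 each). Neither passed, with adjusted p of 0.681 for Ptgds and 0.757 for Ptges2.

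The smallest adjusted p among the 90 pathway genes was that of a clearance gene. Slco2a1 imports prostaglandins into cells, where Hpgd, the 15-hydroxyprostaglandin dehydrogenase, oxidises them. Slco2a1 had gene values of 8.19, 8.10 and 8.31 on K14ΔNLef1 replicates 1, 2 and 3, against 10.20, 10.12 and 10.04 on wild type replicates 1, 2 and 3. Within each genotype the arrays lay within 0.11 (SD in K14ΔNLef1) and 0.08 (SD in wild type), the dim array included. The gene fell by 1.92 on the log2 scale (SE 0.17), or 3.79-fold, with a limma adjusted p of 0.00173 and lower values in 3 of 3 K14ΔNLef1 arrays than in any wild type array. Whichever array was dropped, it still passed, in 6 of 6 fits (adjusted p of 0.00232 to 0.0203). All 19 of its probe sets were lower, 17 of them without overlap, by -2.88 to -0.30.

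Hpgd itself was not separated by genotype. It had 8.01, 8.23 and 9.01 on K14ΔNLef1 arrays against 8.31, 7.66 and 8.67 on wild type arrays, a difference of 0.20 (SE 0.34, limma adjusted p of 0.864). With 1 array left out it ranged between -0.09 (K14ΔNLef1 replicate 3 dropped) and 0.43 (wild type replicate 3 dropped). It was also below 0, at -0.07, when wild type replicate 2 was dropped, and 0.41 when K14ΔNLef1 replicate 1 was. Its 8 probe sets all overlapped between the genotypes. Of the 4 measured breakdown and transport genes, Slco2a1 fell and the other 3 did not pass, with differences of -0.74 to 0.20.

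**Figure D3:**
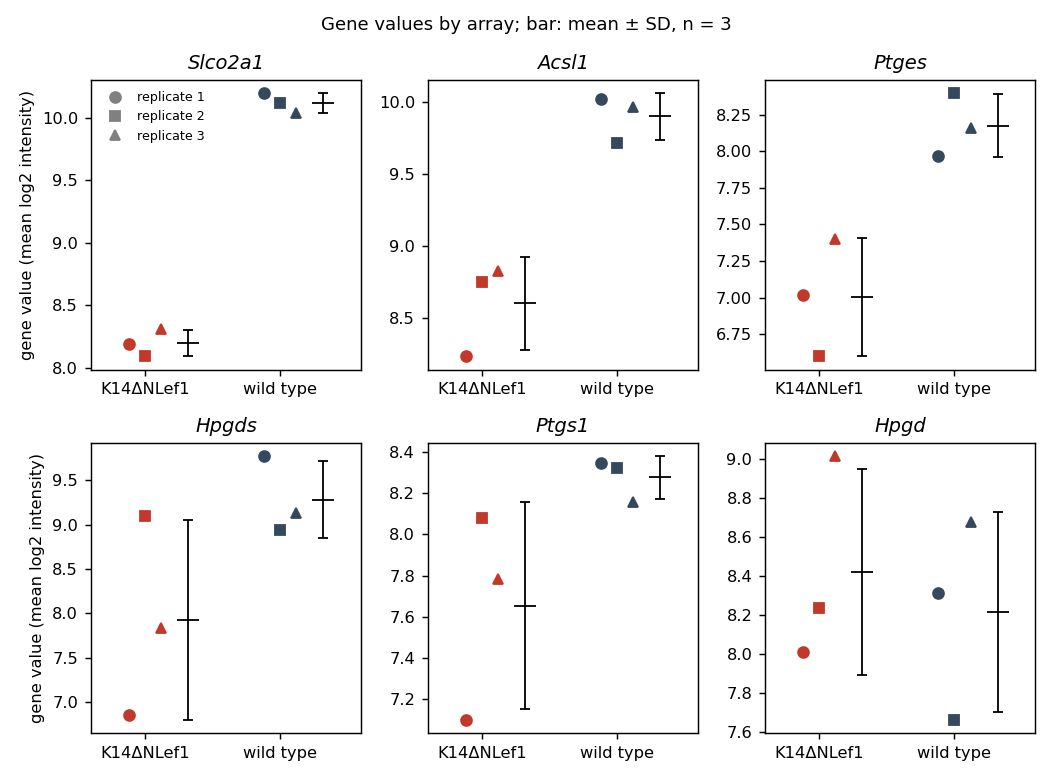
Gene values (mean log2 intensity, a separate scale in each panel) of 6 pathway genes on K14ΔNLef1 arrays (red) and wild type arrays (dark), with a mark shape for each replicate number and bars for mean ± SD (n = 3). Slco2a1 shows tight groups at 8.10 to 8.31 in K14ΔNLef1 and 10.04 to 10.20 in wild type, Acsl1 and Ptges are lower in K14ΔNLef1 without overlap, and the groups of Hpgds and Hpgd overlap.

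None of the 12 prostanoid and lipid receptors passed (limma), and 4 had an unadjusted p under 0.05 (11.8% of all genes), 3 higher and 1 lower. Pparg, a nuclear receptor that binds some fatty acid derivatives, had 6.38, 6.45 and 7.17 on K14ΔNLef1 arrays against 5.24, 5.69 and 5.91 on wild type arrays. The groups did not overlap, with a log2 difference of 1.05 (SE 0.27, adjusted p of 0.157). With 1 array left out the difference was 0.80 to 1.20, and with dim probe sets left out it was 0.74. Ptger1, a receptor of prostaglandin E2, had 7.51, 6.90 and 6.99 on K14ΔNLef1 arrays against 6.62, 6.39 and 6.33 on wild type arrays, a difference of 0.69 (adjusted p of 0.238). With 1 array left out its difference was 0.50 (K14ΔNLef1 replicate 1 dropped) to 0.80 (K14ΔNLef1 replicate 2 dropped). The median of its probe sets gave 0.29. The other receptors of prostaglandin E2, described after their values were seen, differed by 0.09 for Ptger2, 0.72 for Ptger3 and -0.85 for Ptger4 (adjusted p of 0.895, 0.245 and 0.245). The signs thus differed within the family.

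Among 17 lipoxygenase and leukotriene genes, receptors included, 0 passed (limma). Of the 17, 8 had an unadjusted p under 0.05 (11.8% of all genes), 2 higher and 6 lower. Aloxe3, which works in the epidermal barrier, had 6.33, 6.14 and 6.10 on K14ΔNLef1 arrays against 6.58, 7.27 and 7.07 on wild type arrays, a difference of -0.78 (SE 0.22, adjusted p of 0.186). Ltb4r1, a receptor of leukotriene B4, averaged 8.60 ± 0.23 in K14ΔNLef1 and 9.30 ± 0.19 in wild type (SD, n = 3 each, adjusted p of 0.190). The differences in this list ran from -0.80 to 1.13 with a median of -0.03.

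Of 13 genes that supply or recycle arachidonic acid, 1 fell, 0 rose and 12 did not pass (limma). The gene that fell, Acsl1, joins long-chain fatty acids to coenzyme A. It had 8.23, 8.75 and 8.82 on K14ΔNLef1 replicates 1, 2 and 3, against 10.02, 9.71 and 9.96 on wild type replicates 1, 2 and 3. It fell by 1.30 on the log2 scale (SE 0.21), with an adjusted p of 0.0325, lower on 3 of 3 K14ΔNLef1 arrays than on any wild type array and in all 22 probe sets. The call held without K14ΔNLef1 replicate 1 (adjusted p of 0.0221) and was lost when any one of the other 5 arrays was left out (adjusted p of 0.0595 to 0.173), while the difference stayed at -1.41 to -1.24 in those 5 fits.

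Of 24 upstream signals and RNA stability factors of Ptgs2 and Pla2g4a, 0 passed (limma), and 4 had an unadjusted p under 0.05, all lower. Over all genes, 7.58% were lower at that p and 11.8% reached it in either direction. Il1r1, the receptor through which interleukin 1 induces Ptgs2 in many cells, had 7.72, 8.73 and 8.30 on K14ΔNLef1 replicates 1, 2 and 3, against 9.68, 9.55 and 9.45 on wild type replicates 1, 2 and 3. The groups did not overlap, and the log2 difference of -1.31 (SE 0.26) had an adjusted p of 0.0666. It passed without K14ΔNLef1 replicate 1 (difference of -1.04, adjusted p of 0.0405) and without K14ΔNLef1 replicate 2 (-1.55, with the p just under the threshold), and in 2 of 6 such fits in all. Il1a, the interleukin 1 form that keratinocytes store, had 4.90, 4.84 and 4.84 on K14ΔNLef1 arrays against 5.57, 5.33 and 5.78 on wild type arrays, a difference of -0.70 (SE 0.18, adjusted p of 0.152). All these values lay under the median log2 intensity of every array. With dim probe sets left out the difference of Il1a was -0.67 (SE 0.56, limma adjusted p of 0.698). Of the 24, 19 had lower means in K14ΔNLef1, where 57.2% of all genes did. Without K14ΔNLef1 replicate 1 it was 15 of 24, where 52.8% of all genes did.

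**Figure D4:**
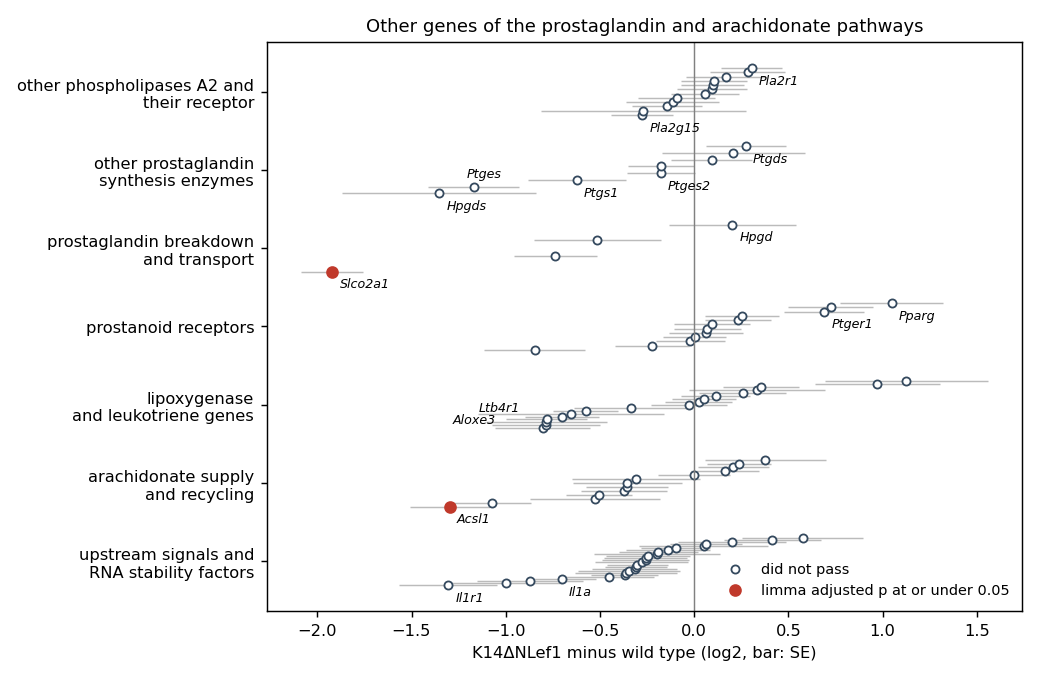
Log2 difference (K14ΔNLef1 minus wild type, bars for the SE of limma) of the 90 other pathway genes by list, red where the adjusted p over all genes was 0.05 or less and open where it was not, with labels on the named genes. Slco2a1 at -1.92 and Acsl1 at -1.30 are the points in red, and the receptors and lipoxygenase genes lie on either side of 0.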

How the data were processed

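Intensities per probe set were deposited on a linear scale for 6 exon arrays; build mm9, Affymetrix Power Tools and RMA are named per the submitters' processing notes, and their versions and any filters are not given in the sources used here. All deposited values have a log2 of 5 decimals, and log2 was taken before every step. Of 114330 probe sets, 109751 had 1 symbol in the platform annotation, 834 several and 3745 none listed. Outdated symbols (1228) were updated through the GRCm38.p6 gene table, which held 11245 of the 11280 genes. Log2 intensities were averaged over a gene's probe sets (median 8) to give its value, and levels are not compared between genes.

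The test was two-sided limma (version 3.58.1 under R 4.3.3; lmFit, then eBayes) without pairing or filter, with Benjamini-Hochberg adjustment over all genes and a threshold of 0.05. The fit was first tested on simulated data. The number of arrays limits the precision, and if the samples share mice or preparations the p-values measure only their spread. Same-numbered arrays did not deviate together (r of -0.163, -0.172 and 0.0358), so the numbers were not taken as pairs. The members and lists were chosen with earlier results of these data known. Named are the genes of the rule, Lef1, in each list up to 4 that passed or else the 2 with the smallest p, the 3 genes of highest r per picked gene and the 2 nearest measured genes on either side. The 9 marker lists cover keratinocytes, T cells, Langerhans cells with antigen presentation, macrophages with monocytes and neutrophils, mast cells, fibroblasts, melanocytes, vessels and sebocytes. Alternatives were the median of probe sets, filters on dim probe sets or genes, other scalings, blocks, array weights, trend and robust settings, a threshold of 0.1 and each array left out. Python 3.11.15 made the tables (pandas 2.3.3) and plots (matplotlib 3.10.9).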

Additional observations from a re-analysis of the deposited data

How the results depend on the processing

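The choice of Pla2g4c, Pla2g4a and Ptgs2, whose groups do not overlap, fixes their direction, so the alternatives bear on the size alone. With 1 array left out their log2 differences were 3.02 to 3.30, -1.66 to -1.28 and -2.26 to -1.68. The median of probe sets moved Pla2g4c to 3.42, and leaving out dim probe sets moved Ptgs2 to -2.80. Genes called higher and lower over all genes were 8 to 115 and 18 to 124 with 1 array left out, 598 and 698 with array weights and 71 and 165 at an adjusted p of 0.1. Higher calls were 103 once arrays were shifted to a common median, 89 after quantile normalization and 111 with K14ΔNLef1 replicate 1 left out and the rest quantile normalized. With the replicate block 49 genes were lower, and with the block of adjacent sample numbers 61. Pathway genes called lower were 1 to 3 with 1 array left out (higher 0 in each), 4 with shifted arrays and 4 after quantile normalization (Slco2a1, Acsl1, Il1r1 and Abhd12 in both), 15 with array weights, 5 at an adjusted p of 0.1, and 1 with the replicate block and 1 with the adjacent number block, which left Slco2a1. Higher ones were 1, Pparg, with shifted arrays and 10 with array weights. The causes of these moves were not tested. Slco2a1 passed in all 16 alternatives (adjusted p of 2.86e-05 to 0.0203) and Acsl1 in 9 of 16 (0.0979 with the replicate block). With 3 arrays a genotype, a difference that missed the threshold is not shown to be absent.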

Other observations

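The 9 probe sets annotated to both Jmjd7 and Pla2g4b, a further cytosolic phospholipase gene, cannot be given to either gene. Their mean log2 intensity was 6.80, 6.94 and 7.61 on K14ΔNLef1 replicates 1, 2 and 3, against 6.94, 7.13 and 7.35 on wild type replicates 1, 2 and 3. The groups overlapped, with a difference of -0.03, and 3 of the probe sets were higher and 6 lower, by -0.56 to 0.38.

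Of the 90 pathway genes, 7 were higher and 21 lower without overlap, where 6.91% and 11.8% of all genes were. Among those outside the naming rule, 3 lower ones were chosen after their values were seen. Abhd12, a hydrolase of the lipid 2-arachidonoylglycerol, had 6.97, 7.18 and 7.52 on K14ΔNLef1 arrays against 8.28, 8.11 and 8.51 on wild type arrays (limma adjusted p of 0.0620). Anxa1, a calcium-binding protein known to restrain phospholipase A2, had 9.52, 10.56 and 10.61 on K14ΔNLef1 arrays against 11.36, 11.14 and 11.19 on wild type arrays (adjusted p of 0.218). Zfp36, which speeds the decay of Ptgs2 and other inflammatory messages, had 7.08, 7.79 and 8.04 on K14ΔNLef1 arrays against 8.80, 8.20 and 8.53 on wild type arrays (adjusted p of 0.260). None of the 3 passed. Alox5ap, the activating protein of 5-lipoxygenase, had 7.22, 8.55 and 7.91 on K14ΔNLef1 replicates 1, 2 and 3, against 7.63, 6.26 and 6.41 on wild type replicates 1, 2 and 3. It was also chosen after its values were seen, its groups overlapped, and it did not pass (limma adjusted p of 0.362). Its highest array in each genotype was also the highest for T cell markers and for markers of Langerhans cells and antigen presentation. The part of these markers in its value was not tested.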
